A study of Mus musculus with 8 samples.

Results

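Cldn11, Mbp, Mog, Mag and Mobp encode proteins of the myelin sheath and were followed across all arrays of a study of mouse right hippocampus. Every probe with values whose symbol in the array annotation was one of these genes was taken, which gave 6 probes for 5 genes, among 16383 probes with values for 11011 gene symbols. Mobp had 2 probes and the other 4 genes 1 each. The 8 one-colour arrays form 4 groups of 2. WNR and WTR are wild type, the first naïve and the second given trace fear conditioning. KNR and KTR are the naïve and the trained Cav3.2 knockout. All mice were males of C57BL/6 background aged 6 to 8 weeks. Cav3.2 is a T-type calcium channel encoded by Cacna1h, and the knockout was homozygous and constitutive, so that the channel was missing throughout the body and throughout life. In trace fear conditioning a tone and a foot shock are separated by an empty interval. Trained mice were returned to the chamber a day later for a test of contextual memory and were killed straight after it. Each group pooled the right hippocampi of 3 mice. Since the sources used here do not settle whether duplicate arrays came from different pools, a p-value below measures how much arrays varied, possibly for technical reasons alone, and says nothing of variation among mice.

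Myelin of the central nervous system is made by oligodendrocytes, which wrap layers of their own membrane around axons so that impulses travel fast. Mbp and Mobp are small basic proteins on the cytoplasmic face of the membrane in compact myelin, and Mbp holds the layers together. Cldn11, a claudin, forms the tight junction strands that run through the sheath and seal the space between its layers. Mag lies in the innermost layer, facing the axon, and Mog on the outermost surface, and both are membrane proteins of the immunoglobulin superfamily. Hippocampus is mostly grey matter, with myelinated fibres in the alveus, the fimbria and some layers of the cell fields. In bulk tissue, fewer oligodendrocytes and less RNA per oligodendrocyte cannot be told apart.

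The 250 bases before the start sites of Cldn11 and Mobp are shown because probes of these 2 genes had the largest differences described below. They are RefSeq sequences of build GRCm38.p6, both on the plus strand, at chr3:31149670-31149919 for Cldn11 and chr9:120149492-120149741 for Mobp. Capitals mark CCAAT, the CCAAT box, in Cldn11 (here on the opposite strand, as ATTGG) and ACAAAG, the core letters bound by Sox factors, in Mobp (here as CTTTGT).
Cldn11: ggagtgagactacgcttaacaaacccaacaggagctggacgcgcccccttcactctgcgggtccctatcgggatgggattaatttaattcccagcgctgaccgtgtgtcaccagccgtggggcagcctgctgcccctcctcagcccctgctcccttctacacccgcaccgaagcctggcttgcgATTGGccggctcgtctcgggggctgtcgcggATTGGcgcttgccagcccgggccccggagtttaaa
Mobp: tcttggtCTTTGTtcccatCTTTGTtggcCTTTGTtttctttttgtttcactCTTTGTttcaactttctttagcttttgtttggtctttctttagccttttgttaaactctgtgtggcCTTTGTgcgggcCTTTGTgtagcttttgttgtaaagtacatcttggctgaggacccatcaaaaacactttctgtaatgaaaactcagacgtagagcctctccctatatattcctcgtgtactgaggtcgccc

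These promoters had little in common in their letters. Cldn11 was GC rich (63.6%) and held 2 matches to CCAAT and 0 to ACAAAG, whereas Mobp had 40.8% GC, 6 matches to ACAAAG and 0 to CCAAT. Of 32851 promoter windows of the same length, 16.5% held ACAAAG at least once on either strand and 33.8% held CCAAT. Mobp was the 1 window (0.00304%) with 6 or more matches to ACAAAG, a number taken from Mobp itself. Another motif, CTGGNAC, the letters of the oligodendrocyte factor Myrf with N for any base, lay in 16.1% of windows. It lay once in the Mog window, in 2 of the 3 windows of Mag (these 2 overlap each other) and in neither sequence printed above. For Mbp there was no window to search. Matches of the 3 motifs did not overlap in these windows. The motifs were chosen with the results known, and a match describes letters, not binding.

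The deposited values are normalized fluorescence intensities on a linear scale. Medians of the 16383 probes lay between 484.7 and 485.4 on the 8 arrays, and 5.76% to 5.9% of values lay below 100. Arrays of 1 group correlated at 0.9881 to 0.9913 and arrays of different groups at 0.9465 to 0.9882. On the first principal component, which held 44.2% of the variance, KNR replicate 1 (-38.1) and KTR replicate 2 (41.2) stood at the ends. The probe of Cacna1h read 1036 to 1551 on the 4 knockout arrays and 2084 to 2575 on the 4 wild-type arrays, without overlap. Where this probe lies relative to the deleted part is not given, so it checks the labels only in part. Intensities of different probes cannot be set against each other, and each gene is compared only with itself.

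Each comparison was tested with limma on the 4 arrays of its own groups (the pairwise fit), with Benjamini-Hochberg adjustment over all tested probes at 0.05, and again in 1 limma fit of all 8 arrays. Differences are of log2 intensity. The 4 comparisons share arrays in pairs (KTR, for one, enters 2 of them), so they are not independent of each other.

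Cldn11 was the gene with the clearest difference, and it was lowest in the trained knockout. Its probe (mMC012641) read 21066 and 20327 in the WNR arrays, 23078 and 25151 in WTR, 22594 and 23172 in KNR, and 15543 and 13707 in KTR. Group means were 20696 ± 523, 24115 ± 1466, 22883 ± 408 and 14625 ± 1298 (SD, n = 2). Both KTR arrays lay below the other 6, both WNR arrays lay below those of WTR and KNR, and WTR and KNR overlapped. KTR was 1.65-fold lower than WTR, a log2 difference of -0.72 (95% interval -0.98 to -0.47 in the fit of all 8 arrays). The adjusted p was 0.13 in the pairwise limma fit and 0.038 in the limma fit of all 8 arrays.

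Mbp, the most studied of the myelin proteins, followed the same order of groups with smaller differences. Its probe (mMC006150) read 34487 and 37619 in WNR, 37096 and 38431 in WTR, 38431 and 36856 in KNR, and 32925 and 28589 in KTR. The group means were 36053 ± 2215, 37764 ± 944, 37643 ± 1114 and 30757 ± 3066 (SD, n = 2). WNR, WTR and KNR overlapped and both KTR arrays lay below all of them. The difference of KTR from WTR was -0.30 on the log2 scale (interval -0.56 to -0.04 in the fit of all 8 arrays), with an adjusted p of 0.25 in the pairwise limma fit and 0.17 in the other.

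Mobp gave different results with its 2 probes. Probe mMC006455 read 1285 and 1613 in WNR, 1318 and 1510 in WTR, 1493 and 1443 in KNR, and 915.2 and 810.0 in KTR. Both KTR arrays were below the other 6, which overlapped among their 3 groups, and KTR was 1.64-fold lower than WTR (log2 -0.71, interval -1.05 to -0.37, limma adjusted p = 0.13 pairwise and 0.055 in the fit of all 8 arrays). Probe mMR027950 read 5452 and 5529 in WNR, 5751 and 5461 in WTR, 6035 and 5436 in KNR, and 4882 and 5681 in KTR. Here all 4 groups overlapped, and the difference of KTR from WTR was -0.09 (interval -0.36 to 0.18, limma adjusted p = 0.71 and 0.69).

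The log2 ratio of the first to the second Mobp probe, less its mean over the arrays, was 0.04 and 0.35 in WNR, -0.00 and 0.27 in WTR, 0.11 and 0.21 in KNR, and -0.29 and -0.69 in KTR. The ratio was thus lowest on the KTR arrays, by 0.29 or more, and the 2 probes correlated at 0.37 (Pearson) and 0.21 (Spearman) over the 8 arrays. Mobp has splice isoforms with different coding ends, and where these probes lie on them is not given in the sources used here.

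**Figure D1:**
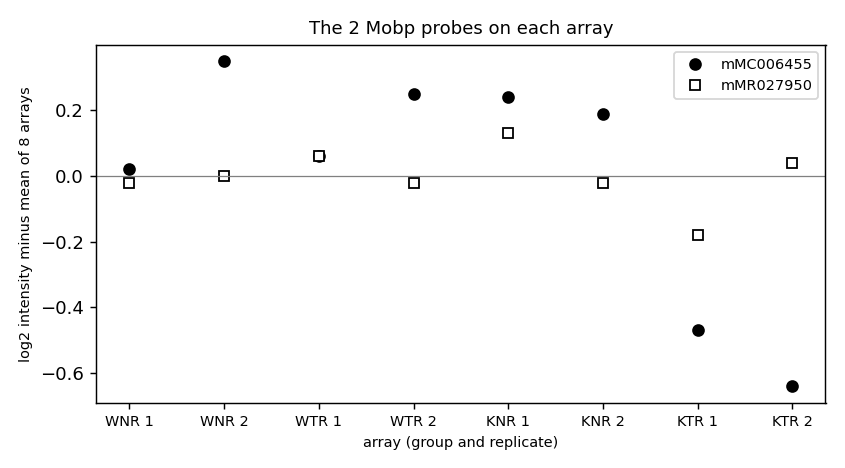
Log2 intensity of the 2 Mobp probes on each of the 8 arrays, less the mean of that probe over the arrays. Probe mMC006455 (filled circles) stands at -0.47 and -0.64 in KTR and at 0.02 to 0.35 on the other 6 arrays, while mMR027950 (open squares) lies between -0.18 and 0.13 on all 8.

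Mog and Mag, the proteins of the outer and inner surface, ran opposite to each other over the groups. The Mog probe (mMC019586) read 1740 and 1646 in WNR, 2128 and 2113 in WTR, 1950 and 2218 in KNR, and 1876 and 1612 in KTR. WTR and KNR lay above the overlapping pair of KTR and WNR. The Mag probe (mMC005722) read 4449 and 4246 in WNR, 3675 and 3481 in WTR, 3262 and 3635 in KNR, and 4050 and 3916 in KTR. Mag was highest in WNR, next in KTR, and lowest in WTR and KNR, which overlapped. Its low groups were thus the groups in which Mog was high, and its KTR values were not low. Group means were 1693 ± 66.1, 2120 ± 10.7, 2084 ± 189 and 1744 ± 187 for Mog, and 4347 ± 144, 3578 ± 137, 3449 ± 264 and 3983 ± 94.4 for Mag (SD, n = 2, in the order WNR, WTR, KNR and KTR). No difference of Mog or Mag between groups passed in either limma fit.

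**Figure D2:**
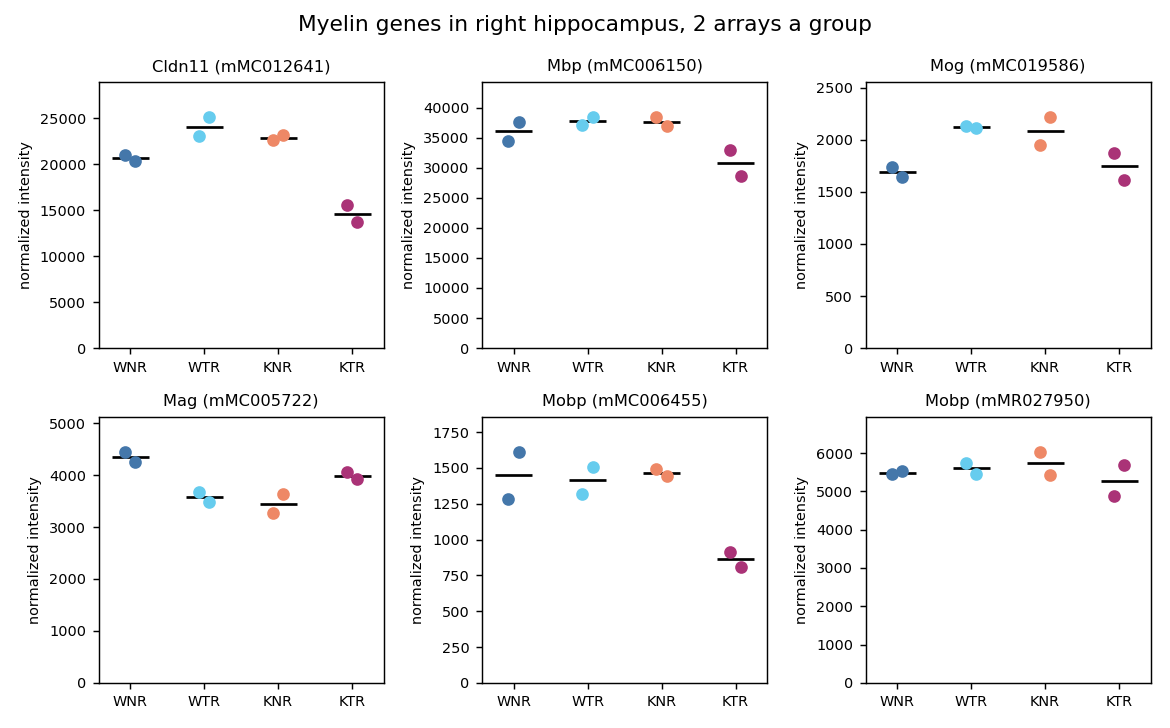
Normalized intensity (linear, axis from 0) of the 6 probes on every array, by group. Points are arrays and bars are means of 2. For Cldn11, Mbp and Mobp probe mMC006455 both KTR points lie below the other 6, for Mog they lie beside WNR, for Mag they lie above WTR and KNR, and for mMR027950 all groups overlap.

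Over the 8 arrays, as a description of values that share 4 groups, Cldn11 correlated with Mbp at 0.92 and with Mobp probe mMC006455 at 0.91, and Mbp with that probe at 0.94 (Pearson). The Spearman values were 0.68, 0.57 and 0.90. Cldn11 and Mog correlated at 0.69 (Spearman 0.86). Mag correlated negatively with each of the other 5 probes, between -0.29 with mMC006455 and -0.67 with Mog.

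KNR was set against WNR to compare the genotypes in untrained mice. Mog lies on chromosome 17, like Cacna1h, and whether this bears on its genotype differences was not tested. The arrays of the groups did not overlap for 3 of the 6 probes, against 58.8% of all tested probes: Cldn11 and Mog were higher in KNR and Mag lower. The log2 differences were 0.15 for Cldn11 (interval -0.11 to 0.40), 0.30 for Mog (0.02 to 0.58), -0.34 for Mag (-0.58 to -0.09), and 0.06, 0.03 and 0.06 for Mbp, mMC006455 and mMR027950. None of the 6 passed. In the pairwise limma fit 0 of 15829 probes passed (0%, with 4323 at an unadjusted p under 0.05), and 1 member probe, Mag, had an unadjusted p under 0.05 there. In the limma fit of all 8 arrays, where 8.02% of probes passed, the lowest adjusted p of a member was 0.083, for Mag. There 2 of the 6 had an unadjusted p under 0.05, as had 4704 of all 16204 probes. SAM, the permutation-based test of the study at its thresholds of q and fold, called 10 probes (0.0632%) and no member.

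The comparison of WTR with WNR asks what training changed in wild-type mice. Again 3 of 6 probes did not overlap, against 56.7% of all probes, and they were Cldn11 and Mog, higher after training, and Mag, lower. Log2 differences were 0.22 for Cldn11 (interval -0.03 to 0.47), 0.33 for Mog (0.04 to 0.61) and -0.28 for Mag (-0.52 to -0.04). Mbp differed by 0.07 and the Mobp probes by -0.03 and 0.03. No member passed: the pairwise limma fit called 0 of 15787 probes (0%, with 3935 at an unadjusted p under 0.05, Mog among them), and in the limma fit of all 8 arrays, which called 6.25%, the lowest adjusted p was 0.14, for Mog and for Mag. At an unadjusted p under 0.05 that fit had 2 of the 6, and 4316 of all 16204 probes. SAM called 8 probes (0.0507%) and no member. This comparison and KNR against WNR share the WNR arrays, which stood apart from the other 6 on the second principal component (-27.7 and -25.1).

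The comparison of KTR with WTR sets the genotypes against each other after training. The arrays did not overlap for 5 of the 6 probes, against 55.3% of all probes. Cldn11, Mbp, Mog and Mobp mMC006455 were lower in KTR, a direction in which 25.6% of all probes did not overlap, and Mag was higher. The median over the 6 probes was -0.29, beside 0.01 for all probes. The pairwise limma fit called 1 of 15779 probes (0.00634%, with 3404 at an unadjusted p under 0.05), which was no member, and had 2 of the 6 at an unadjusted p under 0.05, Cldn11 and mMC006455. The limma fit of all 8 arrays called 1 of the 6, Cldn11, where 2% of all probes passed and 1.26% were lower. At an unadjusted p under 0.05 that fit had 4 of the 6, and 3711 of all 16204 probes. Ordered by size, Cldn11 ranked 658 and mMC006455 ranked 697 among 16204 probes. SAM called 64 probes (0.406%) and no member. The lowest SAM q of a member was 0.12, for Cldn11 and mMC006455.

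The call of Cldn11 in that fit was lost when any 1 of the 8 arrays was left out, with log2 differences of -0.81 to -0.63 and limma adjusted p of 0.062 to 0.22. Without KTR replicate 2, an array at the end of the first principal component, Cldn11 was lower by 0.63 and mMC006455 by 0.62 on the log2 scale.

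The comparison of KTR with KNR asks what training changed in knockout mice. The same 5 probes did not overlap, against 67.8% of all probes, 4 lower in KTR (34.5% of all probes) and Mag higher. Cldn11 was 1.57-fold lower (log2 -0.65, interval -0.90 to -0.39) and mMC006455 1.7-fold lower (-0.77, interval -1.11 to -0.43). Mbp differed by -0.29 (-0.56 to -0.03), Mog by -0.26 (-0.54 to 0.02), Mag by 0.21 (-0.03 to 0.45) and mMR027950 by -0.12 (-0.39 to 0.15). In the pairwise limma fit 0 of 15902 probes passed (0%, with 5393 at an unadjusted p under 0.05), and adjusted p was 0.066 for Cldn11 and 0.062 for mMC006455, the 2 member probes with an unadjusted p under 0.05. In the limma fit of all 8 arrays both passed, with adjusted p of 0.023 and 0.025, where 15.9% of all probes passed and 9.29% were lower. SAM called 367 probes (2.31%) and no member. Cldn11 (q = 0.0058) and mMC006455 (q = 0.0038) were below its limit of q but under 2-fold.

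In that fit both calls were lost without KNR replicate 1 (limma adjusted p = 0.13 for Cldn11 and 0.16 for mMC006455) and without KTR replicate 2 (0.1 and 0.12), and that of mMC006455 also without KNR replicate 2 (0.056). The sizes hardly moved, being -0.67 and -0.74 without KNR replicate 1 and -0.56 and -0.68 without KTR replicate 2.

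The interaction, the difference made by training in the knockout less the one in the wild type, was tested in the fit of all 8 arrays, which takes in all 4 groups. Cldn11 passed with -0.87 ± 0.15 (SE, interval -1.23 to -0.51, limma adjusted p = 0.039). Its parts were -0.65 in knockout mice and 0.22 in wild-type mice, the latter not passing by itself (interval -0.03 to 0.47, limma adjusted p = 0.25). Cldn11 was the 1 member of 6 probes that passed, against 5.18% of all probes and 3.35% in that direction. Values for the others were -0.74 for mMC006455 (adjusted p = 0.074), -0.58 for Mog (0.081), 0.49 for Mag (0.085), -0.36 for Mbp (0.18) and -0.15 for mMR027950 (0.57) by limma. Mag was opposite in sign to the rest. At an unadjusted p under 0.05 there were 4 of the 6, and 4662 of all 16204 probes. The median over the 6 was -0.47, beside 0.01 for all probes. Without any 1 array the Cldn11 value ranged from -0.96 to -0.78, with limma adjusted p of 0.057 to 0.14, so that it no longer passed.

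**Figure D3:**
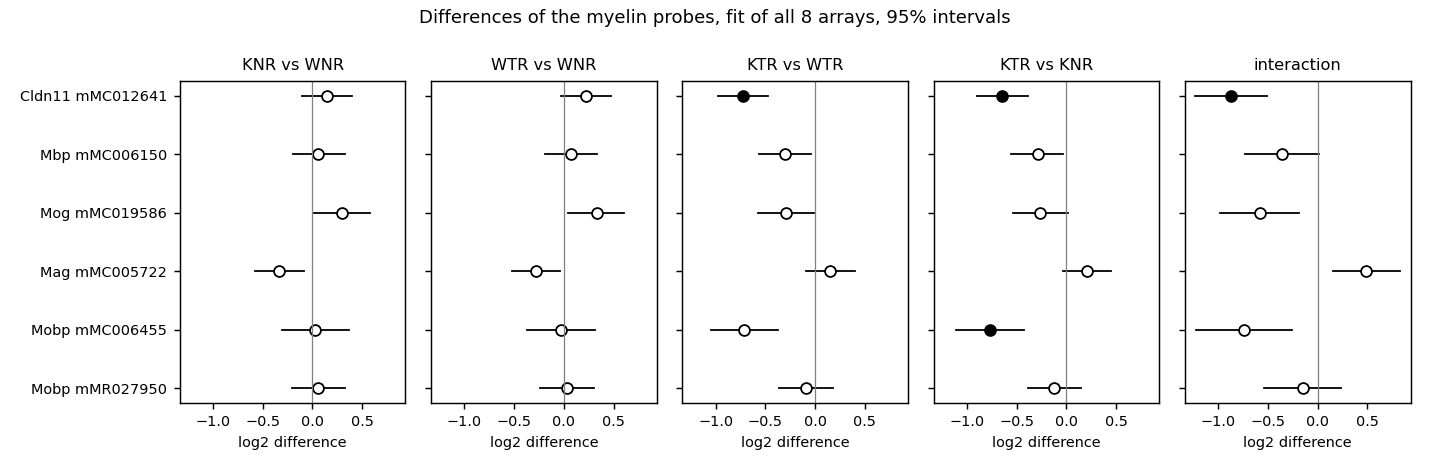
Log2 differences of the 6 probes in the 4 comparisons and the interaction, from the limma fit of all 8 arrays. Lines are 95% intervals not adjusted for the number of probes, and filled points passed at an adjusted p of 0.05: Cldn11 in KTR vs WTR, KTR vs KNR and the interaction, and Mobp mMC006455 in KTR vs KNR.

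Averaged over training, the genotypes differed by -0.29 for Cldn11 (limma adjusted p = 0.08), -0.34 for mMC006455 (0.1), -0.12 for Mbp, -0.09 for Mag, 0.01 for Mog and -0.01 for mMR027950, and no member passed among 3.57% of all probes. At an unadjusted p under 0.05 there were 2 of the 6, and 3963 of all 16204 probes. Averaged over genotype, training gave -0.40 for mMC006455, which passed (limma adjusted p = 0.045, where 14.1% of all probes passed and 8.71% were lower), and -0.21 for Cldn11 (0.094). The first of these was -0.03 in wild-type and -0.77 in knockout mice. With 1 array left out it passed only without WNR replicate 1 (limma adjusted p = 0.047) and otherwise had an adjusted p of 0.064 to 0.13.

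Related genes were tested in the limma fit of all 8 arrays, and none of those named below passed in a pairwise limma fit. A list's count is given beside the share of all probes that passed in the same comparison. The 7 lists of oligodendrocyte, axon contact and tight junction genes that follow held 21, 22, 15, 13, 16, 20 and 14 tested genes. Together, 20 genes passed between KTR and KNR (15.9% of all probes) and 5 between KTR and WTR (2%). Between KNR and WNR 10 passed (8.02%), between WTR and WNR 5 (6.25%) and in the interaction 8 (5.18%). Over the tested genes of the 7 lists together, the counts between KTR and KNR and between KNR and WNR were near these shares. The counts between KTR and WTR and in the interaction were above their shares, and that between WTR and WNR was below. None of the genes that passed did so with each of the 8 arrays left out in turn. Of the 20 between KTR and KNR 16 still passed without some array, against 2 in each of the other 3 comparisons and 0 in the interaction, a check added after seeing the data. Over all probes, too, KTR vs KNR reached the most calls with 1 array left out, 1 to 1632, followed by KNR vs WNR with 1 to 782.

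Other myelin proteins were taken from a list of 28 genes without the 5 above, of which 21 had values. Between KTR and WTR 18 of the 21 lay below 0 (47.1% of all probes), with a median of -0.27 beside 0.01 for all probes. In the limma fit of all 8 arrays 1 passed (2% of all probes), the small heat shock protein Cryab (-0.82, adjusted p = 0.026). Between KTR and KNR 14 of 21 lay below 0 (51.1% of all probes), with a median of -0.06, and 3 passed, all lower. They were the junctional adhesion molecule Jam3 (-1.19, limma adjusted p = 0.028), the oligodendrocyte membrane protein Opalin (-0.49, 0.045) and the link protein of nodes Hapln2 (-0.44, 0.047). The share of all probes that passed was 15.9% there.

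Cnp, an enzyme of the cytoplasm-filled channels of myelin, read 2199 and 1926 in WNR, 2393 and 2471 in WTR, 2178 and 1947 in KNR, and 2598 and 2090 in KTR. KTR overlapped with every other group, unlike Cldn11 and Mbp, and the limma log2 difference of KTR was -0.06 from WTR and 0.18 from KNR. In naïve mice 2 of the 21 myelin proteins were lower in the knockout (8.02% of all probes passed), the scaffold Anln (-0.51, adjusted p = 0.041) and the tubulin-binding Tppp (-0.53, 0.038), with a median of 0.03 over the list. Between WTR and WNR 2 of 21 passed (6.25% of all probes), Cryab, which was higher after training (0.86, 0.025), and Anln, which was lower (-0.55, 0.036), and the median was 0.05. In the interaction 1 of 21 passed (5.18% of all probes), Cryab with -1.20 (0.032), all by limma on the 8 arrays.

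Of 24 genes marking mature oligodendrocytes, 23 had values and 22 could be tested. Between KTR and KNR 6 of them were lower and 0 higher past the threshold (15.9% of all probes passed). The largest were Tmem125 (-0.94, adjusted p = 0.014), Qdpr, which recycles tetrahydrobiopterin (-0.83, 0.02), Enpp2, the autotaxin enzyme that is also strong in choroid plexus (-0.70, 0.034), and the lipid carrier Apod (-0.56, 0.03), by limma. The list median was -0.15 beside -0.01 for all probes. Between KTR and WTR 1 of 22 passed (2% of all probes), Enpp2 (-1.34, 0.025), and the median was -0.16. In the interaction 3 of 22 passed (5.18% of all probes), Qdpr (-0.90, 0.042), Rhog, a small GTPase (-0.85, 0.039), and Tmem125 (-0.83, 0.04). Between WTR and WNR 0 of 22 passed in the limma fit of all 8 arrays (2 at an unadjusted p under 0.05), and 0 of 21 in the pairwise one (3). There Pdlim2 (0.35, 0.1) and Rhog (0.33, 0.11) had the largest differences. Between KNR and WNR 2 of 22 passed (8.02% of all probes), of which Tmem125 was higher (0.53, 0.038) and the ephrin Efnb3 lower (-0.44, 0.041).

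Of 15 measured regulators of the lineage 1 passed between KTR and WTR (2% of all probes) and 2 between KTR and KNR (15.9%). Sox8, a relative of Sox10, was lower in KTR than in WTR (-0.85, limma adjusted p = 0.039) and in KTR than in KNR (-0.82, 0.023), as was Zfp536 in the latter (-0.73, 0.028). Sox10, which drives myelin genes, differed by -0.09 and 0.18 in these comparisons and Olig2, which specifies the lineage, by 0.01 and 0.54, none past the threshold, and Myrf had no values. Of 13 genes of oligodendrocyte precursors 0 passed between KTR and WTR in either limma fit (1 at an unadjusted p under 0.05 in each, median 0.06). The largest differences there were 0.42 for Xylt1 (limma adjusted p = 0.12) and 0.19 for Tnr (0.29). Between KTR and KNR 1 of 13 passed (15.9% of all probes), Lhfpl3, which was higher (0.51, limma adjusted p = 0.037). In naïve mice 1 of 13 passed (8.02% of all probes), Ptprz1, which was lower in the knockout (-0.50, 0.04).

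Enzymes of myelin lipid synthesis had medians of 0.05 between KTR and WTR and 0.13 between KTR and KNR over 16 genes. In the first 0 passed in either limma fit (3 at an unadjusted p under 0.05 with all 8 arrays and 1 pairwise), and Cers2 (0.34, adjusted p = 0.25) and Dhcr7 (-0.34, 0.12) differed most. In the second 3 of 16 passed (15.9% of all probes), and the cholesterol enzymes Sqle (-1.04, limma adjusted p = 0.021) and Dhcr7 (-0.52, 0.03) and the fatty acid hydroxylase Fa2h (-0.54, 0.048) were lower in KTR. Between WTR and WNR 2 of 16 passed (6.25% of all probes), and the fatty acid synthase Fasn (-1.12, 0.02) and Sqle (-0.99, 0.03) were lower after training. Between KNR and WNR 3 of 16 passed (8.02% of all probes), of which Fasn (-0.50, 0.036) and the desaturase Scd1 (-0.43, 0.049) were lower and Dhcr7 was higher (0.49, 0.042). In the interaction 2 of 16 passed (5.18% of all probes), with 0.80 for Fasn (0.039) and -0.84 for Dhcr7 (0.04).

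Among 21 other claudins and tight junction genes with values, 20 could be tested, and those that passed went both ways, 2 of 20 between KTR and WTR (2% of all probes) and 4 of 20 between KTR and KNR (15.9%). Cldn12 was lower in KTR than in WTR (-1.30, limma adjusted p = 0.033) and than in KNR (-1.44, 0.016), in the same direction as Cldn11, and Cldn1 was higher (0.86, 0.026, and 0.69, 0.02). Their interactions were -1.43 (0.04) and 1.0 (0.032), the 2 of 20 that passed there (5.18% of all probes). Cldn2, also on the list of choroid plexus genes, was the 1 of 20 that passed between KNR and WNR (-0.99, limma adjusted p = 0.049). There 8.02% of all probes passed. Tspan3, a tetraspanin that binds Cldn11, was lower in KTR than in KNR (-0.97, 0.023), and Cldn15 was higher (0.87, 0.037). At the contact of axon and myelin 1 of 14 genes passed in each of 3 comparisons. The adhesion protein Cntn2 was lower in KTR than in KNR (-0.68, limma adjusted p = 0.027, where 15.9% of all probes passed). The paranodal band protein Epb41l3 was lower than in WNR both in KNR (-0.58, 0.025, 8.02% of all probes) and in WTR (-0.52, 0.034, 6.25% of all probes).

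Markers of other cells were compared in the same way, and the part of these cells in the results was not tested. Microglial genes had a median of -0.28 between KTR and WTR, with 10 of 12 below 0 (47.1% of all probes). Of these genes 1 passed in the fit of all 8 arrays (Gpr34, -0.58, where 2% of all probes passed). Their summed intensity was 11287 to 12174 in WTR, 10941 to 11778 in KNR and 9963 to 10472 in KTR. Between KTR and KNR 3 of 12 passed, all lower (Aif1 -0.89, Ctss -0.71, Gpr34 -0.40), where 15.9% of all probes passed. With 1 array left out, 0 to 1 of these 3 still passed. Neuronal genes had a median of -0.22 in both comparisons, with 10 of 12 below 0 against WTR (47.1% of all probes). Their sums were 139781 to 144564 in WTR, 126057 to 135805 in KNR and 140963 to 141405 in KTR. Of the 12, 1 passed against WTR (Prox1, -1.04, where 2% of all probes passed). Against KNR 3 passed (Prox1 -1.11, Neurod6 -0.57, Syt1 0.36), where 15.9% of all probes did.

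Astrocyte genes had medians of 0.00 and -0.01 over 13 genes, with sums of 170717 to 171288 in WTR and 165028 to 175321 in KTR. Endothelial genes had medians of -0.14 and -0.21 over 9 genes, and meningeal genes 0.00 and -0.13 over 10. Against WTR, where 2% of all probes passed, the calls were 1 of 13 astrocyte genes (Fgfr3, 0.79), 1 of 9 endothelial (Flt1, -0.83), 1 of 10 meningeal (Ogn, -1.28) and 0 of 8 choroid plexus genes in the limma fit of all 8 arrays. Against KNR, where 15.9% of all probes passed, they were 0 of 13 astrocyte genes, 3 of 9 endothelial (Flt1 -1.13, Slc2a1 -0.85, Pecam1 0.70), 3 of 10 meningeal, all lower (Fmod -0.89, Col3a1 -0.67, Ogn -0.57), and 3 of 8 choroid plexus genes, all higher (Kcne2 0.65, Folr1 0.54, Kl 0.46). Between KNR and WNR, where 8.02% of all probes passed, 6 of 10 meningeal genes passed, 5 higher and 1 lower. Choroid plexus genes had a median of -0.30 against WTR and 0.38 against KNR over 8 genes, with sums of 29439 to 36449 in WTR, 21733 to 22182 in KNR and 23440 to 25875 in KTR. Among defining markers, Siglech of microglia, Aqp4 of astrocytes and Gad1 and Rbfox3 of neurons had no values on these arrays. The sum of the 5 myelin genes, with the brighter Mobp probe, was 53505 to 59276 in KTR and 67194 to 74637 on the other 6 arrays. In it the probes of highest intensity, Mbp and Cldn11, weigh most. The sum of the 21 other myelin proteins did not set KTR apart. It was 110686 to 111300 in KTR, within the 110381 to 112937 of KNR, and 117043 to 126482 on the wild-type arrays.

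**Figure D4:**
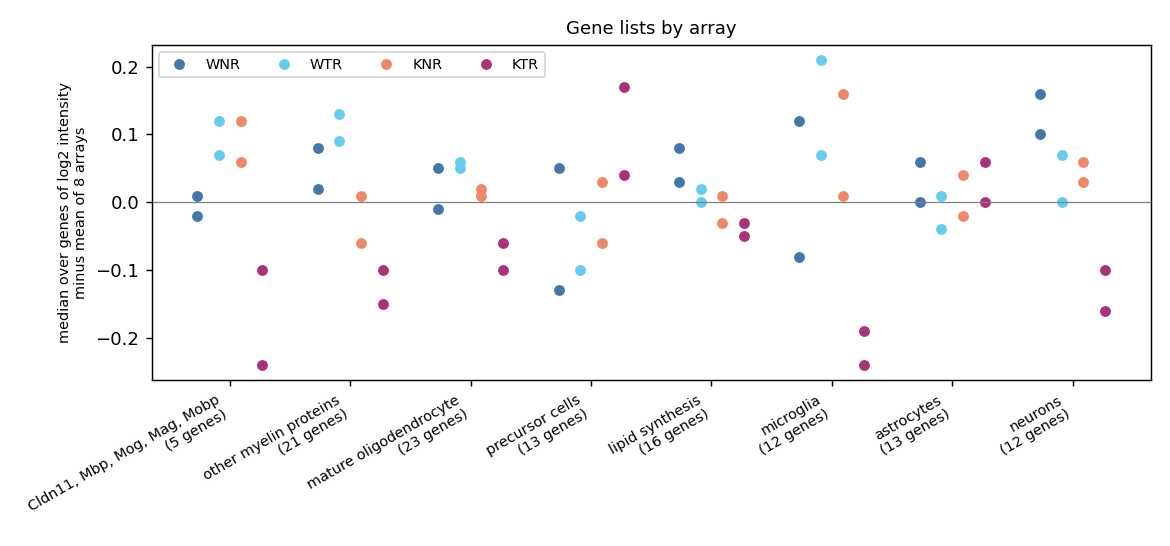
Median over the genes of a list of log2 intensity less the mean of the 8 arrays, for each array (2 points a group). Points of KTR are the lowest for the 5 myelin genes (-0.10 and -0.24), other myelin proteins (-0.10 and -0.15), mature oligodendrocyte genes (-0.06 and -0.10), microglia and neurons, and not for precursor cells or astrocytes.

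The genes whose log2 values over the 8 arrays were most like each member, among 8816 probes with 1 symbol and all arrays above 200, were on none of the lists above. For Cldn11 they were Nemf (Pearson 0.986), Dnajc16 (0.983) and Sptssa (0.981). For Mbp they were B3galnt1 (0.989), the neurofilament Nefm (0.987) and Thap11 (0.983). For Mog they were S100a13 (0.939), Borcs8 (0.935) and Ndufb5 (0.934), for Mag the kinesin subunits Kif3c (0.978) and Kifap3 (0.976) and the actin regulator Wdr1 (0.971), and for Mobp mMR027950 Kdm5b (0.927), Smad4 (0.910) and Clcn2 (0.907). With 8 arrays in 4 groups and so many probes searched, values of this height are a description only.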

How the data were processed

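Total RNA of pooled right hippocampi was amplified, labelled with Cy5 and hybridized to Phalanx Mouse Whole Genome OneArray chips of long oligonucleotide probes, by the study's methods. The authors deposited quantile-normalized intensity values on a linear scale. The methods name a floor of 100 set before normalization, but the lowest deposited intensity is 4.18, and sorted values differ between arrays by 0.1781% in the median. Background correction, spot filters and probe positions are not given in the sources used here. Of 29922 probes 13539 were empty on every array. Symbols of 2101 probes were updated to RefSeq GRCm38.p6 names, and 26 were absent from it.

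Values below 100 were set to 100 and log2 transformed. Probes above 100 on at least 2 arrays of a fit were tested with limma 3.58.1 (R 4.3.3, Python 3.11.15). SAM was written anew with all 6 label orders (q under 0.01, over 2-fold). The limma code was tested on simulated data with 200 changed probes. Lists took the brightest probe per gene. All probes of the 5 genes are reported. In the report, passing genes of the oligodendrocyte lists were named by size, at most 4 a comparison, or else up to 2 of largest size where none passed; lists of other cells were given mainly by their counts. Cnp was always named, and Sox10, Olig2 and Myrf were added for their known roles with values in view. The members, lists and motifs were chosen with earlier results of these data known. Alternatives varied the fit, floor, filter, normalization, replicate block and arrays. The number of arrays limits the precision. The main fits carry no block for the replicate number.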

Additional observations from a re-analysis of the deposited data

Results flagged for a closer look

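Cldn11 was singled out because its training difference was not the same in the 2 genotypes by the test of that difference itself. The value was -0.87 on the log2 scale (SE 0.15, limma adjusted p = 0.039 in the fit of all 8 arrays), made up of 0.22 in wild-type and -0.65 in knockout mice. Both KTR arrays were lower than both KNR arrays, and both WTR arrays higher than both WNR arrays. Of all probes 67.8% and 56.7% did not overlap in these comparisons. The wild-type part did not pass by itself (limma adjusted p = 0.25 in that fit). The test did not pass when any 1 array was left out.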

How the results depend on the processing

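The number of the 6 member probes past the threshold changed with the fit, the filter, the block and the arrays used. Between KTR and WTR it was 0 in the pairwise limma fit, 1 in the fit of all 8 arrays, and 2 in that fit on probes above 200 on 2 arrays (limma adjusted p = 0.031 for Cldn11 and 0.047 for Mobp mMC006455), a setting added after seeing the data. Between KTR and KNR it was 0 pairwise, 2 in the fit of all 8 arrays, 2 with the filter at 200 in that fit, and 0 to 2 with 1 array left out. For the interaction it was 1, and 0 with any 1 array left out or without KNR replicate 1 and KTR replicate 2 together. For training averaged over genotype it was 1, 0 with no filter on low values (limma adjusted p = 0.05 after rounding), 0 without those 2 arrays and 0 to 1 with 1 array left out. The other comparisons stayed at 0 throughout.

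With the replicate number as a block the count was 2 between KTR and KNR, whether fitted pairwise (2, limma adjusted p = 0.0036 for Cldn11 and 0.0015 for mMC006455) or with all 8 arrays (2), 0 for the interaction and 0 for training averaged over genotype, and between KTR and WTR 0 in both fits (with all 8 arrays the limma adjusted p of Cldn11 was 0.08). It changed no other member count. Over all probes the pairwise block called 6170 between KTR and KNR and 520 between WTR and WNR, against 0 for each without it. In the fit of all 8 arrays the block called 5 probes in place of 1300 between KNR and WNR, 63 in place of 324 between KTR and WTR, 0 in place of 1012 between WTR and WNR, and 1442 in place of 2575 between KTR and KNR. A crossed block, added after seeing the data, called 1230 and 1 probes in KNR vs WNR and KTR vs WTR. For the interaction the block called 1 probe in place of 839, for genotype averaged over training 52 in place of 578, and for training averaged over genotype 1182 in place of 2281. Because same-numbered arrays share no stated batch, the numbers were not taken as pairs. Deviations of same-numbered arrays correlated at 0.27 and 0.44 within a genotype and at -0.38 to -0.24 across genotypes. The source of this pattern was not tested.

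Signs turned only for small differences, when 1 or 2 arrays were left out, with these ranges over all alternatives. Mobp mMC006455 ranged from -0.14 to 0.19 in KNR vs WNR and from -0.19 to 0.13 in WTR vs WNR. Mobp mMR027950 ranged from -0.01 to 0.14, from -0.01 to 0.07, from -0.20 to 0.02 (KTR vs WTR), from -0.11 to 0.04 (genotype averaged) and from -0.10 to 0.01 (training averaged). Mog ranged from -0.05 to 0.11 and from -0.02 to 0.09 in the 2 averages. Cldn11 kept its sign under every setting, at -0.81 to -0.63 in KTR vs WTR and -0.74 to -0.56 in KTR vs KNR. Without a filter 0 probes passed in each pairwise fit, and with the filter at 200 the pairwise fits called 35 in KNR vs WNR and 254 in KTR vs KNR. Without the floor, 368 in place of 578 passed for genotype averaged over training. Leaving out 1 array gave, in the fit of all 8 arrays, 1 to 782 probes in KNR vs WNR, 0 to 47 in KTR vs WTR, 0 to 104 in WTR vs WNR, 1 to 1632 in KTR vs KNR, 1 to 96 for the interaction, 11 to 58 for genotype and 0 to 1303 for training averaged. The causes were not tested. All member probes lay above 200 on every array.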
